A study of Mus musculus with 24 samples.

Results

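Potassium channel genes were described in the striatum of 12 mice, as the 71 genes whose symbol starts with Kcn and whose mean level over 12 RNA libraries was at least 1 TPM (RSEM's abundance of a transcript, corrected for its length and for library size). They were chosen out of 37289 genes in the files. Of 97 Kcn symbols there, Kcna1, Kcna2 and Kcne2 were left out by name and 23 fell under the minimum. Just inside the minimum lay Kcnj6 (1.02 TPM) and Kcnb2 (1.03 TPM). Just outside lay Kcne4 (0.677 TPM) and Kcnj5 (0.578 TPM). The level chose the members, so levels are given as a description. Differences between groups of mice played no part in the rule.

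Potassium channels let potassium ions leave or enter a cell along their gradient and so set the resting potential, end the action potential and space repeated firing. The pore is built from subunits of several families: voltage-gated (Kv), inwardly rectifying (Kir), two-pore leak, and calcium- or sodium-activated channels. Auxiliary subunits alter gating and delivery to the membrane, and silent Kv subunits join a Kv2 partner. Spiny projection neurons, the main cells of the striatum, are known for strong inward rectification at rest and for A-type and M-type Kv currents that delay and limit firing.

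The mice were female C57BL/6, either wild type (wt) or heterozygous (het) for Cntnap2, which encodes Caspr2, an axonal adhesion protein that gathers Kv1 channels beside nodes of Ranvier. Their dams carried wild-type and het embryos together and either went through 7 days of variable stress that began at embryonic day 12.5 or were not stressed. The 4 groups were wt control, wt stress, het control and het stress, with 3 mice and 3 libraries each, and all pups were ear-tagged at postnatal day 12 and weaned at day 18. Frozen striatum was micropunched, and polyA RNA was sequenced; the age at death is not given in the labels used here. The comparisons ask whether these genes differed with genotype, with prenatal stress, or with their combination.

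Libraries held 13587154 to 24039706 expected counts, and all 6 het libraries (from 21410135) were deeper than all 6 wt libraries (up to 18538304), so depth goes with genotype. Cntnap2 itself lay at 39.7 to 68.3 TPM in wt and 36.0 to 59.5 TPM in het libraries, which overlap. Averaged over stress, its log2 fold change, het against wt, was -0.38 ± 0.16 (SE; edgeR's quasi-likelihood test, adjusted p = 1). The library labelled wt stress replicate 2, from a female by its label, had 1.32 TPM of Xist against 23.1 to 109 TPM in the others, and the RNA data of het control replicate 1 carry another animal number than its label. Summed TPM of 10 spiny projection neuron markers was 3801 to 8441, so the labelled tissue was present in every library. In bulk tissue, fewer cells of a type and less RNA per cell cannot be told apart.

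Auxiliary subunits headed the list. The 3 Kv beta genes, cytoplasmic partners of Kv1 pores, summed to 360 TPM, which was 22.1% of the 1629 TPM of all members. The 4 Kcnip genes, calcium-binding partners of Kv4 pores, summed to 286 TPM. Kcnab1 lay at 138, 190 and 255 TPM in wt control, 210, 186 and 314 TPM in wt stress, 82.9, 263 and 259 TPM in het control, and 237, 208 and 250 TPM in het stress libraries. Kcnip2 lay at 142, 159 and 196 TPM in wt control, 174, 155 and 246 TPM in wt stress, 103, 208 and 229 TPM in het control, and 199, 187 and 195 TPM in het stress. All 4 groups overlapped for both genes, and their ranges over libraries overlapped each other, so their order is not clear of the spread. Kcnab2 (129 TPM) and the inward rectifier Kcnj4 (126 TPM) came next. These 4 genes held 40.2% of the summed level, while the median member lay at 9.01 TPM. Of the 71 members, 28 lay between 1 and 5 TPM and 11 at 50 TPM or more. Below Kcnab2 and Kcnip2, the auxiliary genes were Kcnip3 (52.5 TPM), Kcnip4 (34.5 TPM), Kcnip1 (16.4 TPM) and Kcnab3 (14.2 TPM).

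Of 14 inward rectifier genes in the files, 11 were members, summing to 221 TPM. Kcnj4, a strong inward rectifier of the Kir2 kind, lay at 109, 98.9 and 130 TPM in wt control, 110, 105 and 168 TPM in wt stress, 82.5, 147 and 164 TPM in het control, and 147, 130 and 126 TPM in het stress. The groups overlapped, and the lowest library was again het control replicate 1. The other strong rectifiers were Kcnj2 (12.2 TPM), Kcnj12 (8.09 TPM) and Kcnj14 (3.03 TPM). Kcnj10, the main astrocyte rectifier, lay at 36.6 TPM and its partner Kcnj16 at 3.63 TPM. Of the G protein-gated pores that answer dopamine and other transmitters, Kcnj9 (14.1 TPM) and Kcnj3 (10.2 TPM) stood above Kcnj6 (1.02 TPM). Kcnj8, the ATP-sensitive pore of mural cells, lay at 4.44 TPM, and Kcnj13, a rectifier of choroid plexus epithelium, at 1.77 TPM.

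Among 2-pore leak channels, 9 of 14 genes were members, summing to 150 TPM. Kcnk1 lay at 60.05, 66.6 and 87.3 TPM in wt control, 62.6, 58.9 and 87.2 TPM in wt stress, 42.4, 73.2 and 76.5 TPM in het control, and 75.4, 73.2 and 71.6 TPM in het stress. Kcnk2, the stretch-sensitive TREK channel, followed with 60.4 TPM. The groups of Kcnk1 overlapped, and the other 7 members lay far lower: Kcnk13 (7.80 TPM), the acid-sensitive Kcnk3 (3.84 TPM) and Kcnk9 (2.54 TPM), Kcnk12 (2.33 TPM), Kcnk4 (1.44 TPM), Kcnk6 (1.31 TPM) and Kcnk10 (1.13 TPM).

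The Kcnh genes (7 of 8, 102 TPM in sum) were led by Kcnh3, an ELK channel that opens below firing threshold. It lay at 33.9, 47.4 and 66.8 TPM in wt control, 53.2, 49.5 and 84.0 TPM in wt stress, 27.9, 69.6 and 82.1 TPM in het control, and 69.2, 65.4 and 67.4 TPM in het stress, with overlapping groups. The ERG gene Kcnh2 (15.2 TPM), the ELK gene Kcnh4 (12.2 TPM) and the EAG gene Kcnh1 (9.19 TPM) followed, above Kcnh5 (2.88 TPM), Kcnh7 (1.76 TPM) and Kcnh6 (1.37 TPM). Among the Kcnq genes, the pores of the M current, Kcnq5 lay at 9.28, 17.1 and 27.1 TPM in wt control, 15.4, 17.1 and 35.3 TPM in wt stress, 6.61, 23.4 and 28.8 TPM in het control, and 23.1, 19.6 and 22.3 TPM in het stress. The wt control libraries alone spanned the het stress values. Kcnq3 lay at a mean of 13.7 TPM.

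Of the channels opened by intracellular ions, the sodium-activated Kcnt1 lay at 46.1, 44.9 and 73.1 TPM in wt control, 48.8, 49.2 and 67.4 TPM in wt stress, 33.2, 53.8 and 61.1 TPM in het control, and 62.4, 63.4 and 60.8 TPM in het stress. It stood above the calcium-activated BK pore Kcnma1 (8.79 TPM), Kcnu1 (3.69 TPM), a relative known from sperm, and Kcnt2 (3.33 TPM). Kcnmb4, the neuronal BK beta subunit, lay at 44.1, 61.4 and 56.2 TPM in wt control, 60.5, 60.6 and 43.3 TPM in wt stress, 50.3, 47.4 and 62.0 TPM in het control, and 63.6, 68.1 and 54 TPM in het stress. Both had overlapping groups, and the subunit's level was above that of its pore in each library. The other BK subunit Kcnmb2 lay at 1.37 TPM. The SK genes, calcium-activated pores of the medium afterhyperpolarisation, gave 14.2, 15.3 and 17.8 TPM for Kcnn2 in wt control, 11.6, 11.7 and 21.0 TPM in wt stress, 11.4, 15.0 and 14.7 TPM in het control, and 15.6, 18.4 and 19.8 TPM in het stress. Kcnn1 (4.32 TPM) and Kcnn3 (3.89 TPM) were lower.

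Classical Kv pores lay at middle levels. Kcnd2, the main pore of the A-type current, lay at 18.5, 27.1 and 53.9 TPM in wt control, 25.2, 22.6 and 56.3 TPM in wt stress, 16.7, 36.9 and 50.7 TPM in het control, and 43.4, 32.7 and 40.9 TPM in het stress. Kcnd3 (5.15 TPM) and Kcnd1 (3.13 TPM) were the other Kv4 members. For each group the A-type pore spread by 2-fold or more over replicates except in het stress, and all groups overlapped. Kcnc1, a Kv3 pore of fast-spiking neurons, lay at 20.3, 26.6 and 73.3 TPM in wt control, 20.6, 22.4 and 33.4 TPM in wt stress, 9.78, 21.4 and 37.1 TPM in het control, and 33.5, 29.7 and 27.5 TPM in het stress. The value of wt control replicate 3 stood apart. Kcnc4 (7.14 TPM) and Kcnc2 (6.27 TPM), also Kv3 genes, were lower.

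Kcna6 led the 4 Kv1 members, at 21.0, 25.6 and 35.6 TPM in wt control, 19.7, 18.5 and 25 TPM in wt stress, 18.2, 18.2 and 26.3 TPM in het control, and 25.8, 25.8 and 24.8 TPM in het stress. The groups overlapped. Kcna4 (16.0 TPM), an inactivating Kv1 pore, Kcna5 (14.1 TPM) and Kcna3 (2.71 TPM) followed. Kcnb2, a delayed rectifier of the cell body, lay at 0.66, 0.79 and 1.36 TPM in wt control, 1.18, 0.57 and 2.11 TPM in wt stress, 0.41, 1.04 and 1.15 TPM in het control, and 1.09, 1.03 and 0.99 TPM in het stress, with overlapping groups.

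The silent subunits that modify Kv2 channels were led by Kcnf1, at 15.0, 20.5 and 20.1 TPM in wt control, 23.1, 17.2 and 27.4 TPM in wt stress, 14.5, 21.4 and 19.9 TPM in het control, and 22.4, 25.8 and 27.7 TPM in het stress. Its relatives were Kcnv1 (17.3 TPM), Kcns2 (9.69 TPM), Kcng1 (9.01 TPM), Kcns1 (5.42 TPM), Kcng2 (2.56 TPM), Kcns3 (1.75 TPM) and Kcng4 (1.74 TPM). Kcne1l, the only Kcne member, lay at 10.1, 13.5 and 14.2 TPM in wt control, 12.1, 14.7 and 12.0 TPM in wt stress, 9.23, 11.4 and 13.0 TPM in het control, and 15.5, 15.3 and 14.5 TPM in het stress. For Kcne1l the het stress libraries lay above the other het libraries, with no such gap from wt stress replicate 2. The antisense transcript Kcnmb4os2 lay at 3.42, 4.28 and 2.81 TPM in wt control, 3.34, 5.03 and 1.79 TPM in wt stress, 3.86, 1.82 and 4.20 TPM in het control, and 4.52, 4.16 and 3 TPM in het stress, and Kcnd3os at a mean of 1.2 TPM. Strand use in counting is not stated, so their reads and those of Kcnmb4 and Kcnd3 cannot be told apart.

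**Figure D1:**
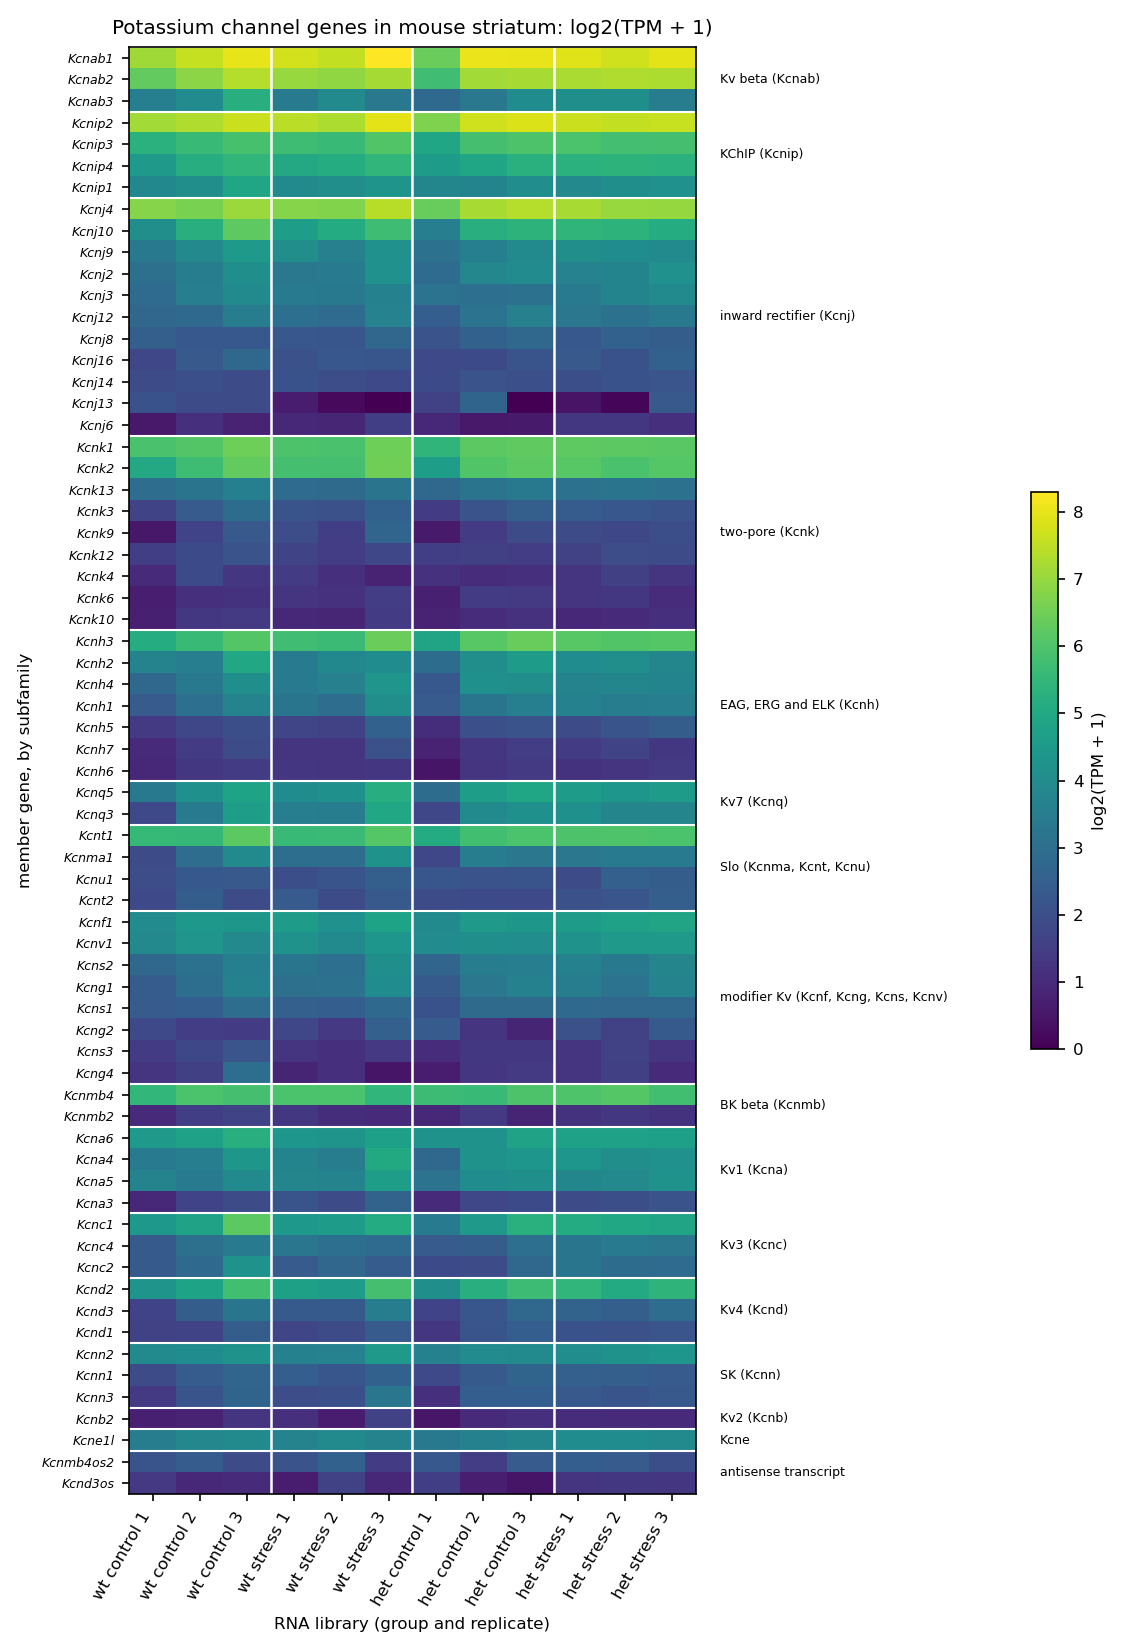
Level of 67 members (rows, grouped by subfamily and ordered by mean) in each of the 12 libraries (columns), as log2(TPM + 1) in colour. Kcnab1 and Kcnip2 are brightest throughout, and the het control 1 column is darker than its neighbours for most rows.

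The members moved together between libraries, also within groups. Het control replicate 1 held the lowest TPM of 44 members and wt control replicate 1 that of 12. Wt stress replicate 3 held the highest of 32 and wt control replicate 3 that of 24. The summed member level ran from 845 TPM in het control replicate 1 to 2185 TPM in wt stress replicate 3, 2 libraries of different groups. The libraries also differed in how their counts depend on transcript length, measured as the slope of the log2 CPM deviation per doubling of length (CPM is the count scaled to library size, not to length). This slope was -0.29 in het control replicate 1, -0.23 in wt control replicate 1, 0.20 in wt control replicate 3 and 0.22 in wt stress replicate 3, and between -0.06 and 0.10 in the other 8. Members are long: their median length was 3027 bases, against 2370 for all genes of at least 1 TPM, and 50 of 71 exceeded that value.

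Against het control replicate 3, het control replicate 1 had a median TPM ratio of 0.386 over the 50 longer members and 0.793 over the 21 others. The same ratio of wt control replicate 1 to 3 was 0.435 over the longer and 0.693 over the other members. Between wt stress replicates 1 and 3, of slope -0.06 and 0.22, it was 0.655 and 0.664. Between het stress replicates 1 and 3, of like slope, it was 1.03 and 0.946. Longer members differed more than the others in both control pairs, and by about as much in the wt stress pair despite its gap in slope. The median member deviated by -0.67 on the log2(TPM + 1) scale in het control replicate 1, where all genes of at least 1 TPM deviated by -0.42. The part of RNA quality or library preparation in this was not tested. Since the lowest libraries were both controls, stress comparisons below also give values without them.

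**Figure D2:**
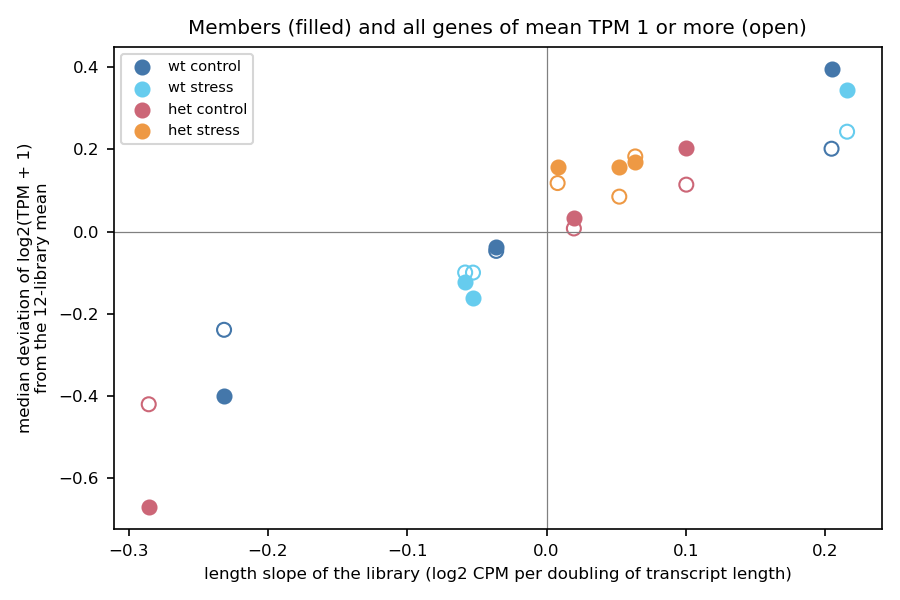
Median deviation of log2(TPM + 1) from the 12-library mean (vertical axis) against the length slope of each library (horizontal axis), for the members (filled points) and for all genes of mean TPM 1 or more (open points), coloured by group. Het control replicate 1 lies at -0.67 and wt control replicate 3 at 0.40 for the members, and the members lie farther from 0 than all genes at both ends.

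No member was called between genotypes. All 71 members passed the filter on low counts, and none had an adjusted p under 0.05 by edgeR's quasi-likelihood test in het control against wt control (background over 15955 genes 0.00627%), in het stress against wt stress (0.00627%) or in the average over stress (0.00627%). DESeq2 also called none of the members there (0.0125%, 0.0188% and 0.0125% of genes). At an unadjusted p under 0.05, 4 members passed in controls (1.47% of genes), 0 in stressed mice (0.57%) and 1 in the average (0.708%). The 4 in controls were all lower in het, where 0.602% of genes passed as higher and 0.871% as lower. The 1 in the average was lower too, where 0.313% passed as higher and 0.395% as lower. In controls, 34 members had higher and 37 lower values in het (50.7% of genes higher), with a median log2 fold change of -0.01. In stressed mice 36 were higher and 35 lower (48.8% of genes higher), with a median of 0.00. In the average 32 were higher and 39 lower (50.3% of genes higher), with a median of -0.02. The median of all genes was within 0.01 of 0 in each. Between libraries of a group, the level of the median member had an SD of 0.279 (log2 CPM, pooled over 4 groups, n = 12), above all these medians. It is the spread of single libraries, not the standard error of a fold change.

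Kcns3, a silent Kv2 partner, had the smallest p between control genotypes. Its CPM was 4.45, 5.30 and 6.10 in wt control and 3.18, 3.11 and 2.88 in het control libraries, from 81 to 108 and 68 to 70 expected counts. All het controls lay below all wt controls. The log2 fold change was -0.79 ± 0.20 (SE), with an edgeR adjusted p of 1. Kcng4, another silent subunit, was the other member whose control genotypes did not overlap, so 2 members did so, against 3.38% of all genes. Both had lower values in het, where 1.44% of genes were clear upward and 1.95% downward. Kcng4 had 4.67, 5.53 and 15.6 CPM in wt control and 2.06, 3.93 and 4.03 CPM in het control. A single library, wt control replicate 3, set the height of the wt group.

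The Kv3 genes Kcnc1, Kcnc2 and Kcnc4 had lower values in het controls. Kcnc2, a pore of interneurons and thalamocortical cells, had 22.1, 28.8 and 66.8 CPM in wt control and 16.8, 12.4 and 23.2 CPM in het control, and the groups overlapped. Its log2 fold change was -1.16 ± 0.39 (SE; edgeR adjusted p = 1), and -0.54 without wt control replicate 3. As a ratio of mean CPM, Kcnc1 went from -0.61 to -0.06 (log2) when that library was left out, and Kcnc4 from -0.28 to -0.15. The direction of these 3 genes did not turn without that library, but Kcnc1 was left near level. Its CPM was 61.1 and 76.2 in wt control replicates 1 and 2, and 36.3, 63.9 and 97.2 in het control. In wt control replicate 3, 7 thalamus markers summed to 134 TPM, against 25.9 to 52 TPM elsewhere. There Shox2, a gene of thalamic neurons, lay at 4.65 TPM against 0 to 0.72 TPM in the other libraries. Pvalb, the marker of fast-spiking interneurons, lay at 270, 237 and 412 TPM in wt control and at 109, 155 and 173 TPM in het control libraries, which did not overlap. The 7 interneuron markers, Pvalb among them and none at 0, summed to 1292 to 1699 TPM in wt control and to 1100 to 1497 TPM in het control libraries. The part of interneurons in the Kv3 values was not tested.

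The members whose top library was wt control replicate 3, at least 1.5-fold above the next, included Kcnc1, Kcnc2, Kcng4, Kcnab3 and Kcnip1. Kcnab3 lay at 36.7 TPM there and at 6.12 to 16.5 TPM in the other 11 libraries. Kcng4 lay at 6.94 TPM there and at 0.39 to 2.00 TPM elsewhere. Kcnip1, at 28.7 TPM, was 1.55-fold above the next library. The part of thalamic tissue in these values was not tested.

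Upward, the smallest p values in controls belonged to Kcnj4 and Kcnh3, both among the abundant members. Kcnj4 had 198, 154 and 162 CPM in wt control and 175, 220 and 222 CPM in het control. Kcnh3 had 104, 125 and 141 CPM in wt control and 100, 176 and 188 CPM in het control. For each gene, het control replicates 2 and 3 lay above all wt controls and het control replicate 1 among or below them. The log2 fold changes were 0.26 ± 0.16 for Kcnj4 and 0.33 ± 0.22 for Kcnh3 (SE; edgeR adjusted p = 1 for both). Kcnj3, a G protein-gated rectifier, showed the reverse: 17.6 and 19.7 CPM in het control replicates 2 and 3, 35 CPM in replicate 1, and 22.3 to 37.3 CPM in the other 9 libraries. Its edgeR log2 fold change in controls was -0.37 ± 0.25 (SE; adjusted p = 1). The 7 markers of cortical excitatory neurons, none at 0, summed to 90.5, 37.0 and 15.5 TPM in the het control libraries, against 32.4 to 150 TPM in wt control, 17.9 to 149 TPM in wt stress and 118 to 162 TPM in het stress. Kcnj3 and this sum were thus both highest in replicate 1 among het controls, while Kcnj3 had its top value of all in wt control replicate 3, where the sum was 32.4 TPM. The part of cortical tissue in these values was not tested.

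These 3 genes were called in a fit, chosen after seeing the data, that added the length slope and left out both control replicates numbered 1, so that 2 wt stood against 2 het controls. There, edgeR's log2 fold changes were -0.86 for Kcnj3 (adjusted p = 0.0263), 0.48 for Kcnh3 (adjusted p = 0.0231) and 0.50 for Kcnj4 (adjusted p = 0.0362), with 3 of 71 members called against 1.3% of genes. With limma-voom and sample weights, 16 members were called in controls against 6.16% of genes, 7 higher and 9 lower in het. The weight of het control replicate 1 was 0.125 and that of wt control replicate 2 was 6.76, so 1 wt library carries most of its group in this fit. The 7 with higher values were Kcnj4 (0.49), Kcnh3 (0.50), Kcnh4 (0.70), Kcna4 (0.53), Kcna5 (0.55), Kcns1 (0.35) and Kcnip2 (0.31; log2 fold changes). The 9 with lower values were Kcnk4 (-1.26), Kcnj6 (-1.24), Kcnc2 (-1.02), Kcns3 (-0.79), Kcnj3 (-0.72), Kcnmb2 (-0.66), Kcnc4 (-0.60), Kcnj16 (-0.59) and Kcna6 (-0.35). Neither edgeR on all 12 libraries nor DESeq2 called any of them.

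In stressed mice, no member's p was below 0.05 between genotypes. Non-overlapping groups were seen for 4 members against 5.19% of genes, with Kcnab2 and Kcna6 higher (3.08% of genes) and Kcnk10 and Kcna3 lower in het (2.11%). Kcng4 had an edgeR log2 fold change of 0.70 ± 0.57 (SE; adjusted p = 1), Kcna3 -0.40 ± 0.28 (SE; adjusted p = 1) and Kcnb2 -0.38 ± 0.34 (SE; adjusted p = 1). Averaged over stress, no member's 6 het libraries were clear of the 6 wt libraries (0.0752% of genes were, 0.0439% upward and 0.0313% downward). In that average the smallest p values were those of Kcnh3 (0.18 ± 0.16), Kcns3 (-0.35 ± 0.14), the G protein-gated Kcnj9 (-0.20 ± 0.14) and Kcnj13, described below (log2 fold change ± SE; edgeR adjusted p = 1 for each).

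**Figure D3:**
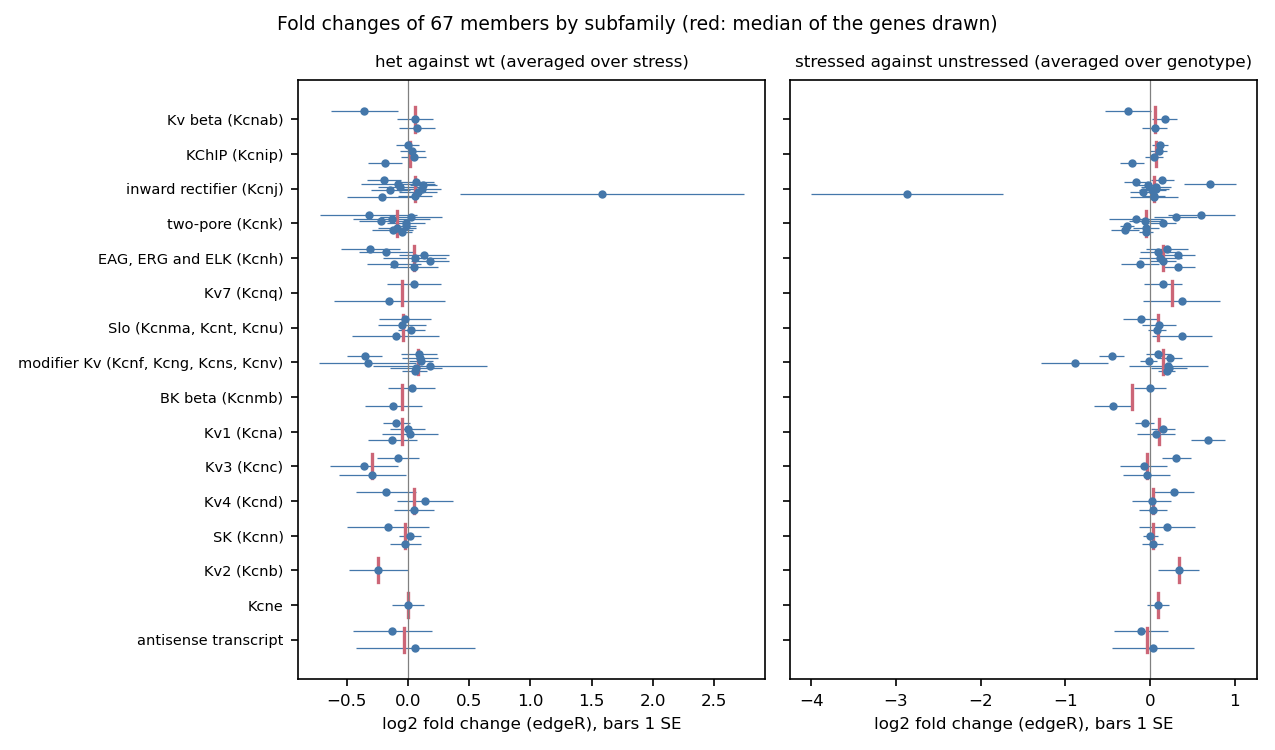
EdgeR log2 fold changes of 67 members (points, bars of 1 SE) by subfamily, for het against wt averaged over stress (left) and for stressed against unstressed averaged over genotype (right); red lines are the medians of the genes drawn in a subfamily. Kcnc1, Kcnc2 and Kcnc4 lie left of 0 for genotype, Kcnq3 and Kcnq5 right of 0 for stress (-0.06 and -0.07 without both control replicates numbered 1), and Kcnj13 lies far out in both, with wide bars.

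Prenatal stress gave no call either. EdgeR's quasi-likelihood test called 0 of 71 members in wt stress against wt control (0% of genes), in het stress against het control (0%), and in the average over genotype (0%), where the smallest adjusted p of a member was 0.975. DESeq2 called none of the members (0.0752%, 0% and 0.0188% of genes). At an unadjusted p under 0.05, 7 members passed in wt mice (2.49% of genes), 0 in het mice (1.12%) and 6 in the average (2.34%). In wt mice 1 was higher and 6 lower, against 0.74% and 1.75% of genes. In the average 2 were higher and 4 lower, against 0.877% and 1.47%. More members had higher than lower values with stress: 44 and 27 in wt (48.8% of genes higher), 50 and 21 in het (50.5%), and 47 and 24 in the average (49.9%). The median log2 fold changes were 0.06, 0.10 and 0.07, against 0.00 to -0.01 for all genes, and below the 0.279 spread between single libraries of a group. Without both control replicates numbered 1, the libraries of lowest slope, the medians in het mice and in the average turned to -0.02, and that in wt mice was 0.04. Leaving out het control replicate 1 alone also gave -0.02 in het mice, and leaving out wt control replicate 1 gave 0.03 in wt mice and in the average, as did het control replicate 1 in the average. Without wt stress replicate 3 the medians were 0.03 in wt mice and 0.04 in the average. In the other direction, the medians were 0.17 in wt mice and 0.13 in the average without wt control replicate 3, 0.18 in het mice and 0.13 in the average without het control replicate 3, and 0.10 in wt mice without wt stress replicate 2.

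The Kv7 genes Kcnq3 and Kcnq5 had higher values with stress in wt mice (log2 fold changes 0.52 ± 0.65 and 0.27 ± 0.31) and in het mice (0.23 ± 0.64 and 0.03 ± 0.31; SE, edgeR adjusted p = 1 for each). Without both control replicates numbered 1, the values were 0.08 and 0.11 in wt mice and turned to -0.20 and -0.26 in het mice. All 3 Kv4 genes were on the same side in the average, with a median of 0.03. In the average 6 of 9 2-pore genes were lower, with a median of -0.05 (49.9% of all genes higher). In wt mice 6 of 9 were lower too (48.8% of all genes higher), while in het mice 6 of 9 were higher (50.5%). Kcnq5, of 5756 bases, was lowest in the 2 control libraries of low length slope, and so was Kcnq3. The part of that slope in these values was not tested.

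Kcna3, the Kv1.3 pore known from T cells, microglia and some neurons, was the member whose stressed libraries all lay above the unstressed ones. It had 1.59, 3.13 and 3.05 CPM in wt control, 5.18, 4.02 and 5.79 CPM in wt stress, 1.97, 3.29 and 3.29 CPM in het control, and 3.64, 3.76 and 3.97 CPM in het stress, from 29 to 101 expected counts. All 6 stressed libraries exceeded all 6 unstressed ones, and both control replicates numbered 1 were the lowest. In TPM the gap was narrow, from 2.69 in the highest control to 2.70 in the lowest stressed library. The log2 fold change was 0.95 ± 0.29 in wt mice and 0.68 ± 0.20 in the average (SE; edgeR adjusted p = 1 and 0.975). The average was 0.45 without both control replicates numbered 1, 0.75 without wt stress replicate 2 and 0.575 without het control replicate 1. When any 1 library was left out, it ran from 0.55 (without wt control replicate 1) to 0.76 (without wt control replicate 2).

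Kcnk13, a THIK leak channel known from microglia, was the only member clear in the other direction. It had 17.9, 18.1 and 19.7 CPM in wt control, 15.5, 14.8 and 14.1 CPM in wt stress, 18, 17.5 and 17.7 CPM in het control, and 15.9, 16.0 and 13.7 CPM in het stress, from 212 to 430 expected counts. All 6 stressed libraries lay below all 6 unstressed ones, with little spread inside each group. Its log2 fold change in the average was -0.27 ± 0.08 (SE; edgeR adjusted p = 0.975), and between -0.30 and -0.25 when any 1 library was left out. On the TPM scale the stressed and unstressed Kcnk13 libraries overlapped. Thus 2 of 71 members did not overlap by stress on the CPM scale, against 0.175% of genes (0.0815% upward, 0.094% downward). On the TPM scale this held for 1 of 71, against 0.157% of genes. The 5 microglia markers summed to 77.3 to 145 TPM in unstressed and 94.5 to 133 TPM in stressed libraries; their part in either gene was not tested.

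Kcns3 was also lowest in p in wt mice by stress, against the same wt control libraries as above. Its CPM was 3.21, 2.71 and 2.64 in wt stress and 2.74, 3.80 and 2.49 in het stress. In CPM the wt control libraries lay above all 9 others. On the TPM scale they lay above het control and wt stress but overlapped het stress. Pvalb was likewise highest in wt control, with 237 to 412 TPM there and 31.7 to 222 TPM in the other 9 libraries. By mean, the remaining groups came in another order for Pvalb than for Kcns3. The part of Pvalb cells in the Kcns3 values was not tested. The sum of the 7 interneuron markers overlapped between wt control and each other group. The log2 fold change of wt stress against wt control was -0.89 ± 0.20, and that of het stress against wt control -0.81 ± 0.20 (SE; edgeR adjusted p = 1 for both). As the contrasts of het control, wt stress and het stress share the wt control libraries, these are not separate observations. Without both control replicates numbered 1 they were -0.99 and -0.92. By limma-voom, Kcns3 was the 1 member called in het stress against wt control (-0.77, adjusted p = 0.044; 0.307% of genes).

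For the members that stood apart by stress or against wt control, chosen after their values were seen, the 250 bases before the annotated transcription start were read from RefSeq (build GRCm38.p6), which held an entry for 51 of the 71 members. Capitals mark GGGCGG, the GC box, on either strand. Kcns3 has 2 annotated starts.
Kcna3, chr3:107035912-107036161, plus strand: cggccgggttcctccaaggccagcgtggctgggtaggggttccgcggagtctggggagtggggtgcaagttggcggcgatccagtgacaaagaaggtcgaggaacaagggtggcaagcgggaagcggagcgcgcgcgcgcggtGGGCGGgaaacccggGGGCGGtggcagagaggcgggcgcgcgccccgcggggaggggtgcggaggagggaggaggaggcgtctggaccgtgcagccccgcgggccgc
Kcnk13, chr12:99964249-99964498, plus strand: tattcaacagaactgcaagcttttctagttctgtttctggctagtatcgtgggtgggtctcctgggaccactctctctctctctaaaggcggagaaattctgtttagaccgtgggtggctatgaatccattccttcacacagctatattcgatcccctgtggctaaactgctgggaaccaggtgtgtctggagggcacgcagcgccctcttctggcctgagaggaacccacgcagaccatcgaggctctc
Kcns3 first start, chr12:11150843-11151092, minus strand: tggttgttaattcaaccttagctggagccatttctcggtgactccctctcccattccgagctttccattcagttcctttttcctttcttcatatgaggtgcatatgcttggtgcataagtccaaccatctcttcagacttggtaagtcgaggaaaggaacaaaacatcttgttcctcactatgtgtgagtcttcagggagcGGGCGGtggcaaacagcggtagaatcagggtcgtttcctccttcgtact
Kcns3 second start, chr12:11150374-11150623, minus strand: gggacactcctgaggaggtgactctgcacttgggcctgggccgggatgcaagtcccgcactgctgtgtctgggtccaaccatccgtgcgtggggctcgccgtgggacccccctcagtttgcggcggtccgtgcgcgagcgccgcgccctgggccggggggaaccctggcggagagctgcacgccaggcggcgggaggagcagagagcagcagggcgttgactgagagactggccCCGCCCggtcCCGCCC
The Kcna3 stretch holds 2 GC boxes, 31 CG pairs and 74.4% G and C, and the Kcnk13 stretch 0 GC boxes, 8 CG pairs and 52.8%. The Kcns3 stretches hold 1 and 2 GC boxes, with 47.2% and 72.8% G and C. None of the 4 holds TATAAA, the TATA box, on either strand. Over all members, 45.9% of 74 entries held GGGCGG, against 32.7% of 32851 entries of the table, and 4.1% held TATAAA, against 12.4%. The motifs do not overlap each other, and a match is a description of the letters only.

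**Figure D4:**
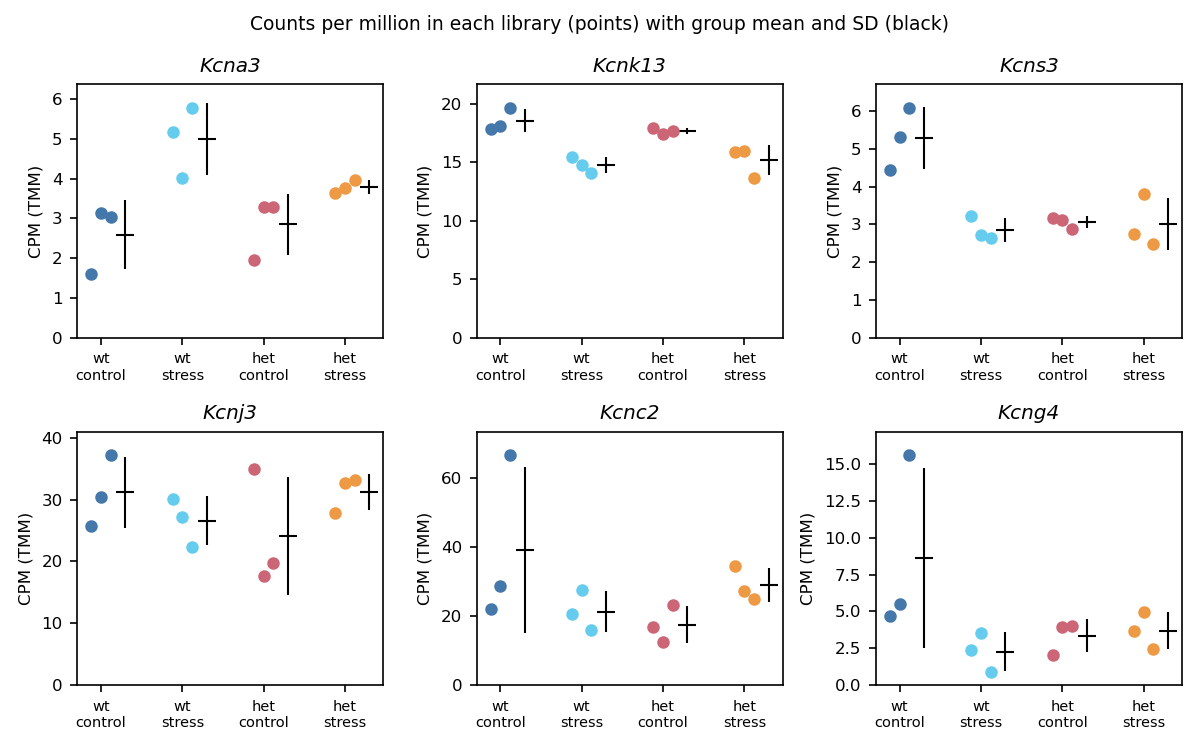
CPM (TMM-scaled) of 6 members in each library (points) by group, with the group mean and SD beside them in black. Kcna3 lies higher and Kcnk13 lower in both stressed groups, Kcns3 is high in wt control alone, and for Kcnc2 and Kcng4 a single wt control library lies far above the rest.

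Other members had their smallest p in 1 contrast. Kcng4 had 2.41, 3.53 and 0.86 CPM in wt stress, all below wt control, and a log2 fold change of -1.92 ± 0.57 (SE; edgeR adjusted p = 1), or -1.17 without wt control replicate 3 and -2.21 without both control replicates numbered 1. Kcna5 gave 0.33 ± 0.20 in wt mice by stress (SE; edgeR adjusted p = 1), and 0.49 without both control replicates numbered 1. Both contrasts use the wt control libraries. In het mice, Kcnj6, a G protein-gated rectifier, had 1.73, 0.64 and 0.66 CPM in control and 1.88, 1.92 and 1.52 CPM in stress, which overlap through het control replicate 1. Its log2 fold change was 0.82 ± 0.42 there, 1.44 without that library, and 0.71 ± 0.30 in the average (SE; edgeR adjusted p = 1 and 0.975). The cortical excitatory markers given above were likewise lower in het control replicates 2 and 3 than in het stress, while wt stress replicate 3, with 17.9 TPM of them, had the highest Kcnj6 (2.29 CPM); their part was not tested. The Kv3 gene Kcnc4 gave 0.51 ± 0.24, Kcnk13 -0.22 ± 0.11 and the TREK gene Kcnk10 -0.40 ± 0.23 in het mice (SE; edgeR adjusted p = 1 for each), and 0.54, -0.21 and -0.48 without both control replicates numbered 1. By limma-voom, Kcnj3 was the 1 member called there (0.74, adjusted p = 0.0462; 0.0877% of genes).

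Groups did not overlap by stress for 6 members in wt mice (5.79% of genes) and for 7 in het mice (6.68%). In wt mice Kcna3 and Kcnip3 were higher (2.62% of genes), and Kcns3, Kcng4, Kcnk13 and Kcnj13 lower (3.17%). In het mice Kcna3, Kcnc2, Kcnc4 and Kcnf1 were higher (3.97%), and Kcnk13, Kcnk10 and Kcnj8 lower (2.71%). On the TPM scale 15 members did so in het mice, all higher, against 15.4% of genes. Against wt control, het stress was clear for 6 members in CPM (6.31% of genes). Kcna3, Kcnh3, Kcnh5 and Kcnip3 were higher (3.64%), Kcns3 and Kcnk13 lower (2.66%). On the TPM scale het stress was clear of wt control for 4 members, all higher, against 9.21% of genes. In that contrast edgeR called 0 of 71 members (0.00627% of genes), and DESeq2 none (0.0125%). There, 3 members passed an unadjusted p of 0.05 (1.28% of genes), all lower (0.84%, against 0.439% higher). Of the members, 45 were higher and 26 lower (49.3% of genes higher). Kcnf1 gave 0.25 ± 0.14, Kcna3 0.55 ± 0.28 and Kcnk13 -0.29 ± 0.11 (SE; edgeR adjusted p = 1 for each), and 0.23, 0.29 and -0.31 without both control replicates numbered 1.

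Whether the effect of stress differed between genotypes was tested as an interaction. EdgeR called 0 of 71 members (0% of genes), DESeq2 none (0%), and 3 passed an unadjusted p of 0.05 (1.33%), all positive (0.859%, against 0.47% negative). The interaction was positive for 36 and negative for 35 members (48.2% of genes positive). Kcns3 gave an interaction of 0.87 ± 0.29 and Kcnc2 of 1.61 ± 0.55 on the log2 scale (SE; edgeR adjusted p = 1 for both). Kcnc2 lay at 20.6, 27.5 and 15.8 CPM in wt stress and 34.6, 27.3 and 25 CPM in het stress. Its stressed libraries overlapped the controls in wt mice and lay above them in het mice, and its interaction was 0.98 without wt control replicate 3. Kcna3 (-0.54 ± 0.40) and Kcna5 (-0.37 ± 0.28) led the negative side (SE; edgeR adjusted p = 1 for both); without both control replicates numbered 1 they were -0.50 and -0.67. Of the other Kv3 genes, Kcnc1 gave 0.63 ± 0.55 and Kcnc4 0.40 ± 0.34, and the Kv7 genes Kcnq3 and Kcnq5 gave -0.29 ± 0.91 and -0.24 ± 0.44 (SE; edgeR adjusted p = 1 for each). In the fit with the length slope and without both control replicates numbered 1, the Kcnj3 interaction was 1.1 (adjusted p = 0.0383), the 1 member called against 0.611% of genes.

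Kcnj13 had the widest spread and went with the summed markers of another tissue. It lay at 3.24, 2.69 and 2.70 TPM in wt control, 0.57, 0.16 and 0 TPM in wt stress, 2.03, 5.42 and 0 TPM in het control, and 0.35, 0.11 and 3.98 TPM in het stress. In counts this was 34 to 101 in 6 libraries and 0 to 3 in the other 6. The 6 choroid plexus markers summed to 299 to 848 TPM in the same 6 libraries and to 5.85 to 23.5 TPM in the other 6. Among them Ttr lay at 290 to 826 TPM and 0.9 to 11.4 TPM, and it made up most of the sum in the first 6. No marker was at 0 in the first 6, and Slc4a5 was at 0 in het control replicate 3. Folr1, Aqp1 and Slc4a5 also did not overlap between these sets of libraries, but Clic6 and Kl did. Clic6 was highest of all in wt stress replicate 3 (10.3 TPM), a library with a low sum. Kl in that library (1.51 TPM) lay above Kl in wt control replicate 1 (1.16 TPM). By group the sum was 299 to 575 TPM in wt control, 5.85 to 23.5 in wt stress, 8.98 to 848 in het control and 12.3 to 568 in het stress. By stress, the edgeR log2 fold change of Kcnj13 was -4.52 ± 1.82 in wt mice, from 34 to 61 counts in control and 0 to 3 in stressed libraries, -1.20 ± 1.3 in het mice and -2.86 ± 1.13 in the average (SE; adjusted p = 1, 1 and 0.975). Without het stress replicate 3 the latter 2 were -5.08 and -4.80, and without het control replicate 2 the value in het mice was -0.27. By genotype, the edgeR log2 fold change in stressed mice was 3.25 ± 1.90, and in the genotype average 1.59 ± 1.16 (SE; adjusted p = 1 for both). Without het stress replicate 3, the 1 stressed library with a choroid plexus marker sum of 299 TPM or more, they were -0.63 and -0.35.

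**Figure D5:**
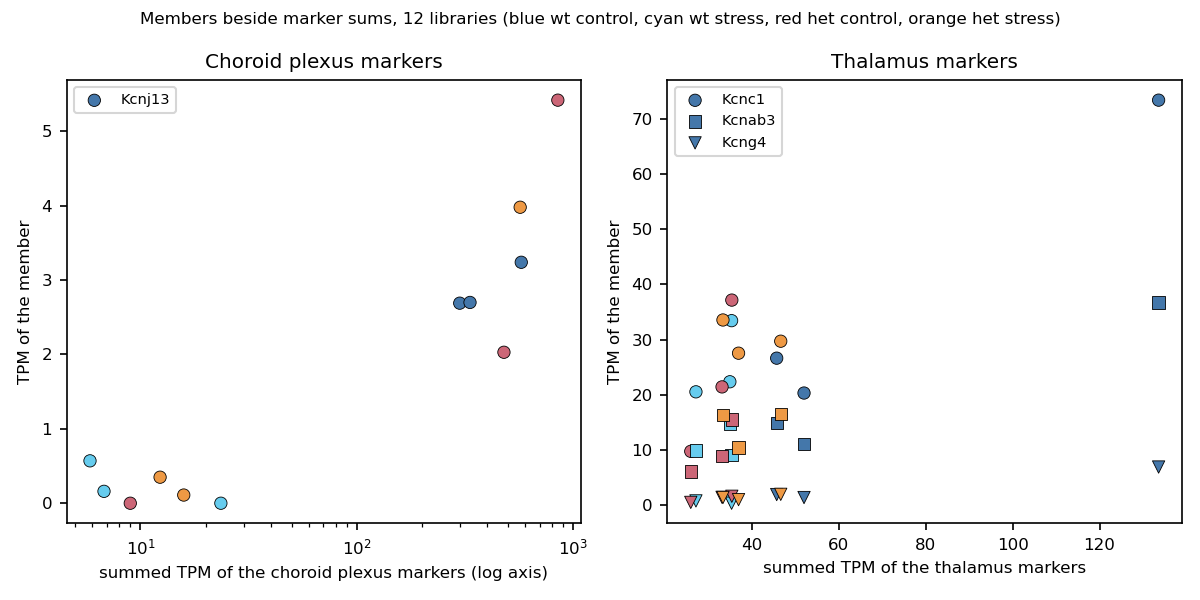
Left, Kcnj13 in TPM against the summed TPM of 6 choroid plexus markers (log axis); right, Kcnc1, Kcnab3 and Kcng4 in TPM against the summed TPM of 7 thalamus markers; each point is a library, coloured by group. Libraries with a choroid plexus sum of 299 TPM or more have at least 2.03 TPM of Kcnj13, and wt control replicate 3, at 134 TPM of thalamus markers, lies apart for all 3 genes.

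Splice forms gave a readout that the choice of members did not use. The files list 237 transcripts of the members, of which 155 passed the filter; 20 members have 1 listed transcript and 27 have at least 2 with a mean share of 20% or more (the share is the percent of a gene's abundance given to a transcript). Kcnab1 was split between a form at 73.5% and a short one at 20.4%, and Kcnip2 had a main form at 76.8%. Kcna6 was split 55.3% to 44.6%. The BK pore Kcnma1, known for extensive splicing, was spread over 4 forms at 28.3%, 27.0%, 25.4% and 16.7%. Pairs of transcripts of Kcnj10 and Kcnip1 have the same values in every library, so their reads could not be told apart.

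EdgeR called 0 member transcripts in each of the 8 contrasts, where at most 0.00265% of 37796 transcripts were called. The counts below an unadjusted p of 0.05 were 6 in het control against wt control (2.06% of transcripts), 8 in wt stress against wt control (3.64%), 2 in het stress against wt control (2%), 6 for the interaction (2.13%), 5 in the stress average (3.79%), 1 in the genotype average (1.94%), and 0 in stressed mice by genotype (1.66%) and in het mice by stress (1.84%). The single Kcna3 transcript gave 0.67 ± 0.24 and a Kcnh2 form (ENSMUST00000129246.1) -0.97 ± 0.39 by stress (log2 fold change ± SE; edgeR adjusted p = 1 for both). A Kcnc2 form (ENSMUST00000092175.2) gave an interaction of 1.62 ± 0.59 (SE; edgeR adjusted p = 1). A minor Kcnab2 form (ENSMUST00000105648.2) was listed at 0 in all 3 wt control libraries and in 2 others and at 1.13 to 4.27 TPM in the other 7, so no fold is given for it. A Kcnk10 form (ENSMUST00000085120.5) gave -2.66 ± 1.3 in the genotype average (SE; edgeR adjusted p = 1).

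DESeq2 called 2 member transcripts in 6 contrasts, against 0.283% of transcripts in controls by genotype, 0.566% in wt mice by stress, 0.325% in het stress against wt control, 0.407% for the interaction, 0.651% in the stress average and 0.362% in the genotype average. They were a Kcnj16 form (ENSMUST00000106636.1) and a Kcnt2 form (ENSMUST00000060201.8), each listed at 0 in all wt control libraries. The Kcnj16 form was also listed at 0 in wt stress replicates 1 and 3 and het stress replicates 2 and 3, and held all of the gene in het control replicate 3 and het stress replicate 1. Its share thus jumped between 0 and 100% within groups, while the gene itself lay at 2.37 to 5.85 TPM.

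Of 27 other genes that serve potassium currents or their partners, such as Dpp6, Dpp10, Abcc8, Amigo, Lgi and Hcn genes, 26 were tested and 0 were called by edgeR in either direction in any of the 8 contrasts. With an unadjusted p under 0.05, 1 passed in the stress average (2.34% of genes) and 0 elsewhere. In controls 7 had higher and 19 lower values in het (50.7% of genes higher), with a median log2 fold change of -0.07. In stressed mice 20 were higher and 6 lower (48.8% of genes higher), with a median of 0.07. For stress in het mice 21 were higher and 5 lower (50.5% of genes higher), with a median of 0.15. The interaction was positive for 23 and negative for 3 (48.2% of genes positive), with a median of 0.12. The other contrasts were less one-sided. For stress in wt mice 14 were higher and 12 lower (48.8% of genes higher), with a median of 0.00. Higher and lower were 18 and 8 in het stress against wt control (49.3%), and 17 and 9 in the stress average (49.9%). In the genotype average they were 11 and 15 (50.3%). Values without single libraries are not given for these genes. These contrasts share libraries, so the counts are not independent of one another.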

How the data were processed

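RNA from 12 striata was sequenced. Per the submitters' processing notes, the tools were Bowtie and RSEM and the build mm9 (NCBIM37). No version of either is stated in the labels or headers used here. The authors' deposited files give, for each gene and transcript, the expected count and the TPM, and for transcripts the percent of the gene's abundance, per the file headers. No replicates were pooled.

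From these, expected counts, rounded to integers, were filtered (filterByExpr), TMM-scaled and fitted with edgeR 4.0.16 (robust quasi-likelihood, R 4.3.3) over 12 libraries and 4 group means. The 8 two-sided contrasts were adjusted by Benjamini-Hochberg over 15955 genes and called at 0.05; the biological coefficient of variation was 0.256. CPM values are TMM-scaled. An adjusted p of 0.9999 or more is printed as 1. Alternatives used DESeq2 1.42.0, limma 3.58.1 (voom with sample weights), other scaling and filters, the length slope, and left-out libraries. The p-values reflect only how these mice vary, and litter mates may be among them. Deviations of same-numbered libraries correlated at r = 0.598, 0.146 and 0.782 between wt control and wt stress. Between wt control and het control r was 0.805, -0.0588 and 0.835. Wt control replicate 2 correlated better with wt stress replicate 1 (r = 0.282) than with its own number. No label pairs the libraries, so the numbers were not taken as pairs and the main fit used none. Replicate libraries differed by more than sampling noise, so none was merged.

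On simulated control comparisons, 7.54% of 199 genes changed 2-fold were recovered among 15815 genes fitted, and 85.9% of 199 changed 4-fold among 15810. Members and gene lists were chosen with earlier results of these data known. Levels in every library were given for the top member reported here of each subfamily, and fold changes for the 2 members of smallest p per contrast and direction; other members are named for the reason stated beside them. Values of 4 single members are not reported here and are left out of the figures by gene; counts, sums and medians over the 71 members include them. The 5hmC data of the series and links to its regions were not analysed here.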

Additional observations from a re-analysis of the deposited data

How the results depend on the processing

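Counts of called members were 0 under most settings. They were 16, 1 and 1 with limma-voom and sample weights (controls by genotype, het mice by stress, het stress against wt control), and 3 and 1 in the fit, chosen after seeing the data, with the length slope and without both control replicates numbered 1 (controls by genotype, interaction). DESeq2 called 2 member transcripts in 6 of 8 contrasts. The cause was not tested. In 12 fits that each left out 1 library, 0 members were called in all 8 contrasts. Of 659 alternative values of the 32 fold changes of smallest p per contrast and direction, 648 kept their direction and side of the threshold. All 32 had an edgeR adjusted p of 0.975 or more, so few could be expected to change side. Fold changes given for other reasons, such as those of Kcnq3 and Kcnq5, which turned in het mice, are not in this count. By limma-voom, Kcnb2 in stressed mice turned to 0.0637 and Kcnj13 in the genotype average to -0.38. Leaving out libraries, Kcnj13 ran from -0.63 to 3.83 in stressed mice and from -0.35 to 1.88 in the genotype average. Non-overlap counts on the TPM scale, added after seeing the data, were 1, 2 and 15 for controls by genotype, stressed mice by genotype and het mice by stress, against 2, 4 and 7 in CPM. Of all genes, 3.17%, 9.11% and 15.4% did not overlap in TPM, and 3.38%, 5.19% and 6.68% in CPM. A mean TPM minimum of 0.5 gave 73 members and of 2 gave 58.

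Same-numbered libraries correlated from -0.375 to 0.835 in 18 pairs, 10 of them above 0.1, and 9 of 18 correlated best with their own number. Outside wt control against wt stress, no 2 groups had all 3 pairs above 0.1. In every comparison the libraries share only a number, and a pairing of mice was not shown. With the replicate block, 0 members were called in each contrast, so it changed no call, and the stress-average log2 fold change of Kcna3 was 0.71 and of Kcnk13 -0.28. In the simulated comparison of het control with wt control, 2-fold changes were mostly not recovered. Its noise was drawn independently for each gene and library, and the other contrasts were not simulated.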
